A study of Mus musculus with 7 samples.

Results

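Tight junction proteins other than the claudins, together with the Crumbs, Par and Scribble complexes that set apical-basal polarity, were followed in 7 expression arrays of embryonic mouse kidney and of a kidney epithelial line. The set was a list of 34 genes, and every probe set annotated to exactly 1 of them was taken. All 34 genes were measured, Inadl under its current symbol Patj, with 90 of the 45037 non-control probe sets and 34 of the 18194 genes of the array. A gene was represented by its brightest probe set, and levels are log2 of the deposited intensity. The arrays comprised 1 of mIMCD-3, 2 of ureteric bud tip, 2 of ureteric bud stalk and 2 of metanephric mesenchyme. mIMCD-3 is a mouse inner medullary collecting duct line, here 1 freshly isolated subclone grown to confluence. The tissues were microdissected from mouse kidneys at E12.5 (days of embryonic development), and the labels give no strain, sex or genotype. The labels call the tissue arrays biological replicates without naming animals or pools, so p-values measure the spread between 2 arrays per tissue.

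Tight junctions seal the space between epithelial cells at the apical end of their lateral membranes. Their membrane proteins bind cytoplasmic PDZ scaffolds, which link them to actin, while the Crumbs and Par complexes mark the apical side and the Scribble complex the basolateral side. In the embryonic kidney the ureteric bud is a polarised epithelium that branches at its tips and gives rise to the collecting ducts, and the metanephric mesenchyme around it is not yet epithelial.

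The labelled tissues carried their defining markers, with other cells beside them. The summed intensity of 7 ureteric bud markers was 3838 in mIMCD-3, 23427 to 26268 in tip, 11328 to 11547 in stalk and 462 to 484 in mesenchyme. For 6 nephron progenitor mesenchyme markers it was 488 in mIMCD-3, 586 to 706 in tip, 1300 to 1339 in stalk and 5544 to 6028 in mesenchyme. The sum of 6 renal stroma markers was 881 in mIMCD-3, 557 to 826 in tip, 7709 to 8326 in stalk and 7572 to 8229 in mesenchyme. By this sum the stalk arrays carried as much stromal signal as the mesenchyme arrays. Single stroma markers ran from -1.18 to 1.41 log2 units in stalk against mesenchyme. The 8 endothelial markers summed to 198 in mIMCD-3, 675 to 731 in tip, 1874 to 1929 in stalk and 2901 to 3217 in mesenchyme. In mIMCD-3 the epithelial genes Cdh1 (log2 intensity 10.88), Epcam (10.79) and Cdh16 (9.42) were bright. The bud genes Ret (4.12), Calb1 (3.38) and Gata3 (4.48) and the collecting duct water channel Aqp2 (5.15) lay below the median of that array, 5.40.

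Relative to mesenchyme, the ureteric bud carried more RNA of 15 members and less of 3, and 16 did not pass the test. The call was an adjusted p under 0.05 from limma with Benjamini-Hochberg adjustment over all genes, and bud stands for the mean of tip and stalk. Of all 18194 genes, 6.13% were called higher and 4.96% lower in bud. The median member difference was 0.38 log2 units, against -0.02 over all genes, and single members ran from -1.09 to 5.19. In bulk tissue, fewer cells of a type and less RNA per cell cannot be told apart. The higher members were 6 of 8 membrane proteins, 4 of 6 cytoplasmic scaffolds, 2 of 6 Crumbs complex genes, 1 of 6 Par complex genes, 1 of 5 Scribble complex genes and 1 of 3 genes linked to apical actin. The lower members were the membrane protein Jam3, the Crumbs complex gene Mpdz and the actin-linked gene Shroom3. In several families 1 paralog was called and another was not: Pard6b and not Pard6a or Pard6g, Llgl2 and not Llgl1, Tjp3 and not Tjp1, and Cgn and not Cgnl1. The difference between paralogs was not itself tested.

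**Figure D1:**
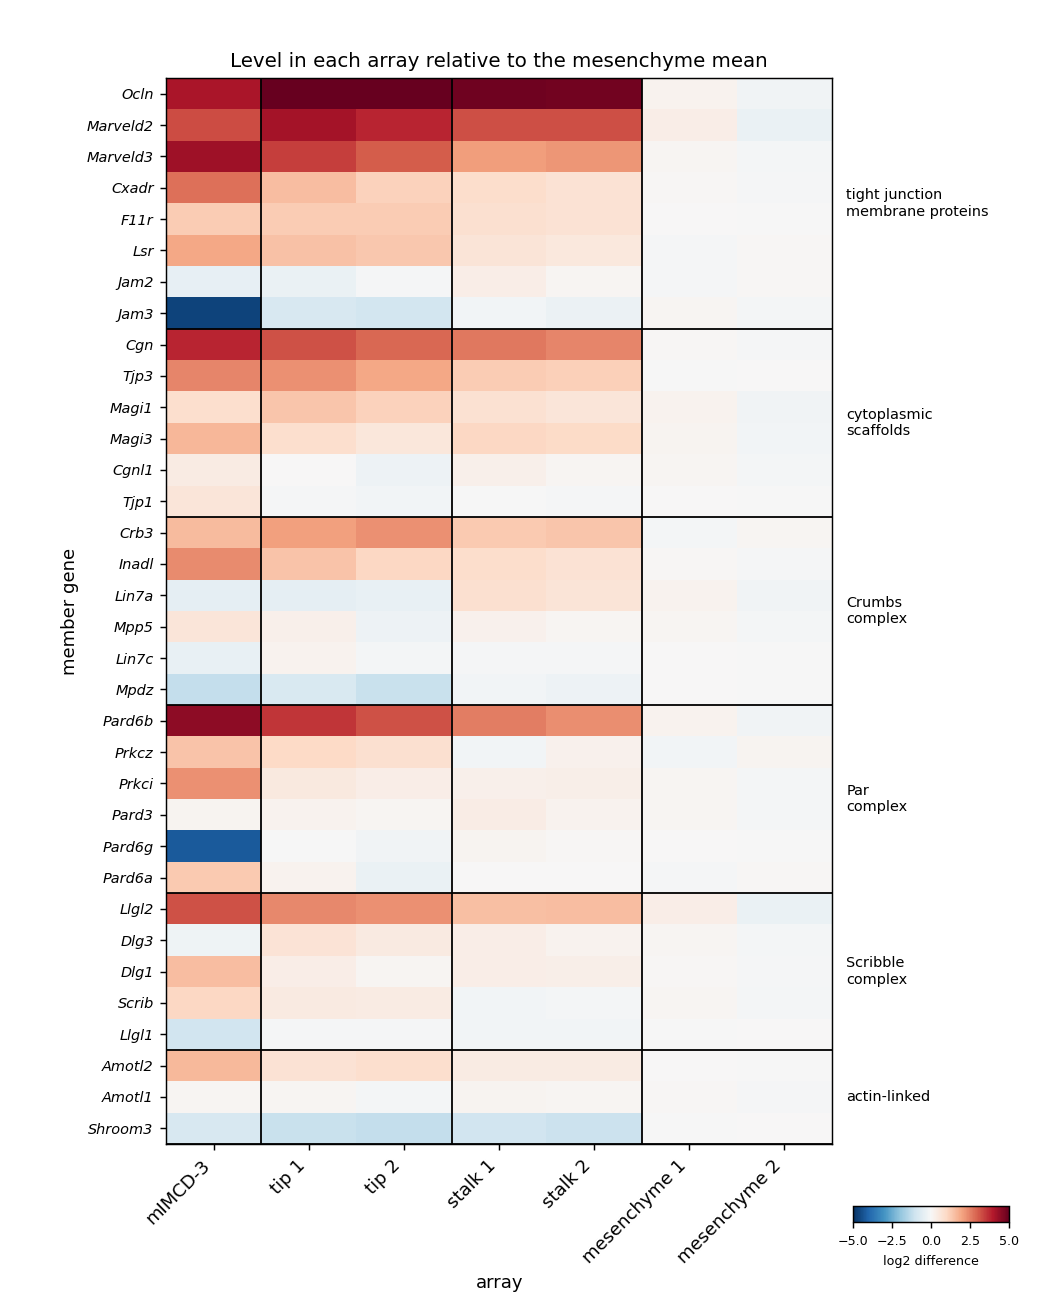
Level of each member in each of the 7 arrays minus the mean of the 2 mesenchyme arrays, in log2 units (colour, scale ending at -5 and 5), with genes ordered by role and then by bud minus mesenchyme. Ocln, Marveld2, Marveld3, Cgn, Pard6b and Llgl2 are red in mIMCD-3, tip and stalk, and Jam3 and Pard6g are deep blue in mIMCD-3 alone.

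Promoter windows run from 250 bases before to 50 after the annotated start, from RefSeq on build GRCm38.p6. They are shown for the member with the largest bud difference among membrane proteins (Ocln), scaffolds (Cgn), Crumbs (Crb3) and Par (Pard6b) complex genes. Also shown are Shroom3, which was lower in bud, and the paralogs Tjp1 and Llgl1, which were not called. Marveld2, with a larger bud difference than Crb3 (3.61 against 1.76 log2 units), is not shown. Where RefSeq lists several starts, the first listed window is printed. Capitals mark CACCTG, the E-box that Snail and Zeb repressors can bind, read on either strand (CAGGTG on the other), and in Cgn the grainyhead motif AACNGGTT.
Ocln, chr13:100552669-100552968, minus strand: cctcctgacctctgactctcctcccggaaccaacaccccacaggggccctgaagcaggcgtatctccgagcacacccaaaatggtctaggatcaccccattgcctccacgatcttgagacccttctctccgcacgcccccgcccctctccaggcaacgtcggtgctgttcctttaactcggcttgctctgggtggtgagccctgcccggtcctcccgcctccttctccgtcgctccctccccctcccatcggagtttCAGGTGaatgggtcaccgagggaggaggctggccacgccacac
Cgn, chr3:94786433-94786732, minus strand: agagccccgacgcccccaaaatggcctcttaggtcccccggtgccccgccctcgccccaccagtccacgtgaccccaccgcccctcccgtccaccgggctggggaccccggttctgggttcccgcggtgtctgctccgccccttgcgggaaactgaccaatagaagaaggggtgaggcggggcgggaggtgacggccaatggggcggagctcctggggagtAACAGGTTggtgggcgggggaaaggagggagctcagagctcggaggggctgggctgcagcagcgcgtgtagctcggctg
Crb3, chr17:57061951-57062250, plus strand: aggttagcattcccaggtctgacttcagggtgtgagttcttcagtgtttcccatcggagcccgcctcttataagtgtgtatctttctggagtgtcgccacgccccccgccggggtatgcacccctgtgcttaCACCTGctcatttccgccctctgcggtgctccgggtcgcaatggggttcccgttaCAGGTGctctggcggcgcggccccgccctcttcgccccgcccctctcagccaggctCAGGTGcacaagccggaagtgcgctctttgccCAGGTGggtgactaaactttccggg
Pard6b, chr2:168080754-168081053, plus strand: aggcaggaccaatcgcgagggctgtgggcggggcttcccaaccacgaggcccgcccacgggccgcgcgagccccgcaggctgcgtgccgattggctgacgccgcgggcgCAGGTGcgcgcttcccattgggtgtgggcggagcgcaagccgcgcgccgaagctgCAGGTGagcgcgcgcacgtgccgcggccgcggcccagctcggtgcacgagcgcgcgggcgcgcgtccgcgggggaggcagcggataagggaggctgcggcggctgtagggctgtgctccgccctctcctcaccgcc
Shroom3, chr5:92809132-92809431, plus strand: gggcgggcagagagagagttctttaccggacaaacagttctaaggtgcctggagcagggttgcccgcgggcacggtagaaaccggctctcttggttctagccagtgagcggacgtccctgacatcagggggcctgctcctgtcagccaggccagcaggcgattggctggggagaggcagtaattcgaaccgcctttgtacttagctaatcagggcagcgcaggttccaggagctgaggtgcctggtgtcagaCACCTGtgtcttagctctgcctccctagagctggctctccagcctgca
Tjp1, chr7:65371195-65371494, minus strand: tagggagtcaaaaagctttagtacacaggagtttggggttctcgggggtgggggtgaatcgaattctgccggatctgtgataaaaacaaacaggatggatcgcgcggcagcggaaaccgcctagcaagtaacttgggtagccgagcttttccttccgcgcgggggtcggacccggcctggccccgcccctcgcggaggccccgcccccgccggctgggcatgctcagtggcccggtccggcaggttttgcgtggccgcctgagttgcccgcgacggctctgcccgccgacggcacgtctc
Llgl1, chr11:60699450-60699749, plus strand: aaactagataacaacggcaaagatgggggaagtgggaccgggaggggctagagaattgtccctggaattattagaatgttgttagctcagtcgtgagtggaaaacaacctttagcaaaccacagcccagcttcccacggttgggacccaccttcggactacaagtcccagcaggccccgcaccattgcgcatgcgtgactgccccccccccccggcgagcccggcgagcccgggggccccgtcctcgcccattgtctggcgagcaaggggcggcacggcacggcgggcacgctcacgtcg

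The Crb3 window held 4 copies of CACCTG, the Pard6b window 2, the Ocln and Shroom3 windows 1 each, and the Cgn, Tjp1 and Llgl1 windows 0. Across RefSeq, 20.2% of 32851 windows held it, and 22.6% of 27025 genes held it in at least 1 window. Windows were found for 25 of the 34 members, and Marveld3, Jam2, Jam3, Cxadr, Mpp5, Mpdz, Pard6g, Llgl2 and Scrib had no entry. Among members with an entry, 9 of 12 called higher in bud held CACCTG in at least 1 window, against 5 of 12 not called. In the first listed window alone the counts were 8 of 12 called higher and 1 of 12 not called, beside 20.0% of all 27025 genes. Shroom3, the 1 member called lower with an entry, held it as well. AACNGGTT was in 2.09% of all windows and, among members, in Cgn only, and AACCGGTT, a case of AACNGGTT, was in 0.146% of all windows and in 0 members. A match is a run of letters and was not tested as a binding site.

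Among the membrane proteins the 3 MARVEL-domain proteins differed most, and Ocln and Marveld2 held the largest differences of all members. Pard6b (2.92 log2 units) and Cgn (2.78) came before Marveld3 (2.70). Ocln encodes occludin, a tetraspan protein of the junctional strands. Ocln had a log2 intensity of 8.47 in mIMCD-3, 10.12 and 9.76 in tip, 9.25 and 9.23 in stalk, and 4.56 and 4.24 in mesenchyme. Its difference of bud from mesenchyme was 5.19 ± 0.15 log2 units (SE), 36.6-fold, with an adjusted p of 1.53e-06. The mesenchyme arrays lay close to the lower quartile of their array (4.06 and 4.17), and folds against such dim values can be understated. Marveld2 encodes tricellulin, which sits where 3 cells meet. Marveld2 had 8.08 in mIMCD-3, 9.0 and 8.63 in tip, 8.06 and 8.04 in stalk, and 5.15 and 4.49 in mesenchyme, a bud difference of 3.61 ± 0.20 (adjusted p 2.49e-05). Marveld3, a related tetraspan protein of the tight junction, had 8.90 in mIMCD-3, 8.10 and 7.68 in tip, 6.76 and 6.86 in stalk, and 4.77 and 4.54 in mesenchyme, a bud difference of 2.70 ± 0.15 (adjusted p 2.62e-05). In all 3 genes every bud array lay above every mesenchyme array.

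The immunoglobulin-type junction proteins differed less and not all in 1 direction. F11r, which encodes the junctional adhesion molecule JAM-A, had 10.41 in mIMCD-3, 10.41 and 10.40 in tip, 9.93 and 9.88 in stalk, and 9.16 and 9.12 in mesenchyme. Its bud difference was 1.01 ± 0.10 log2 units, with an adjusted p of 0.000528. Lsr, an angulin that recruits tricellulin to tricellular contacts, had 9.94 in mIMCD-3, 9.45 and 9.35 in tip, 8.62 and 8.52 in stalk, and 7.92 and 8.06 in mesenchyme. Tip, stalk and mesenchyme did not overlap for F11r or Lsr, and for Lsr the bud difference was 1.00 ± 0.11 (adjusted p 0.000846). Cxadr, the coxsackievirus and adenovirus receptor, was higher in bud by 1.08 ± 0.14 (adjusted p 0.00211). Jam2, which encodes JAM-B, differed by 0.00 ± 0.13, with all tissue arrays between 5.12 and 5.78.

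Jam3, which encodes JAM-C, went the other way. Jam3 had 4.08 in mIMCD-3, 7.91 and 7.82 in tip, 8.57 and 8.42 in stalk, and 8.81 and 8.63 in mesenchyme. The bud difference was -0.54 ± 0.12 log2 units (adjusted p 0.0217), and tip lay below stalk, and stalk below mesenchyme, in every array. The call was lost when either mesenchyme array or either stalk array was left out, with differences from -0.63 to -0.45 and adjusted p-values up to 0.206 over the 6 fits without 1 tissue array. The Jam3 call was also lost when a gene was scored by the mean of its probe sets, the dimmer probe set differing by -0.08 ± 0.12. The stroma and endothelium markers given above were also lowest in tip, and their part in the result was not tested.

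**Figure D2:**
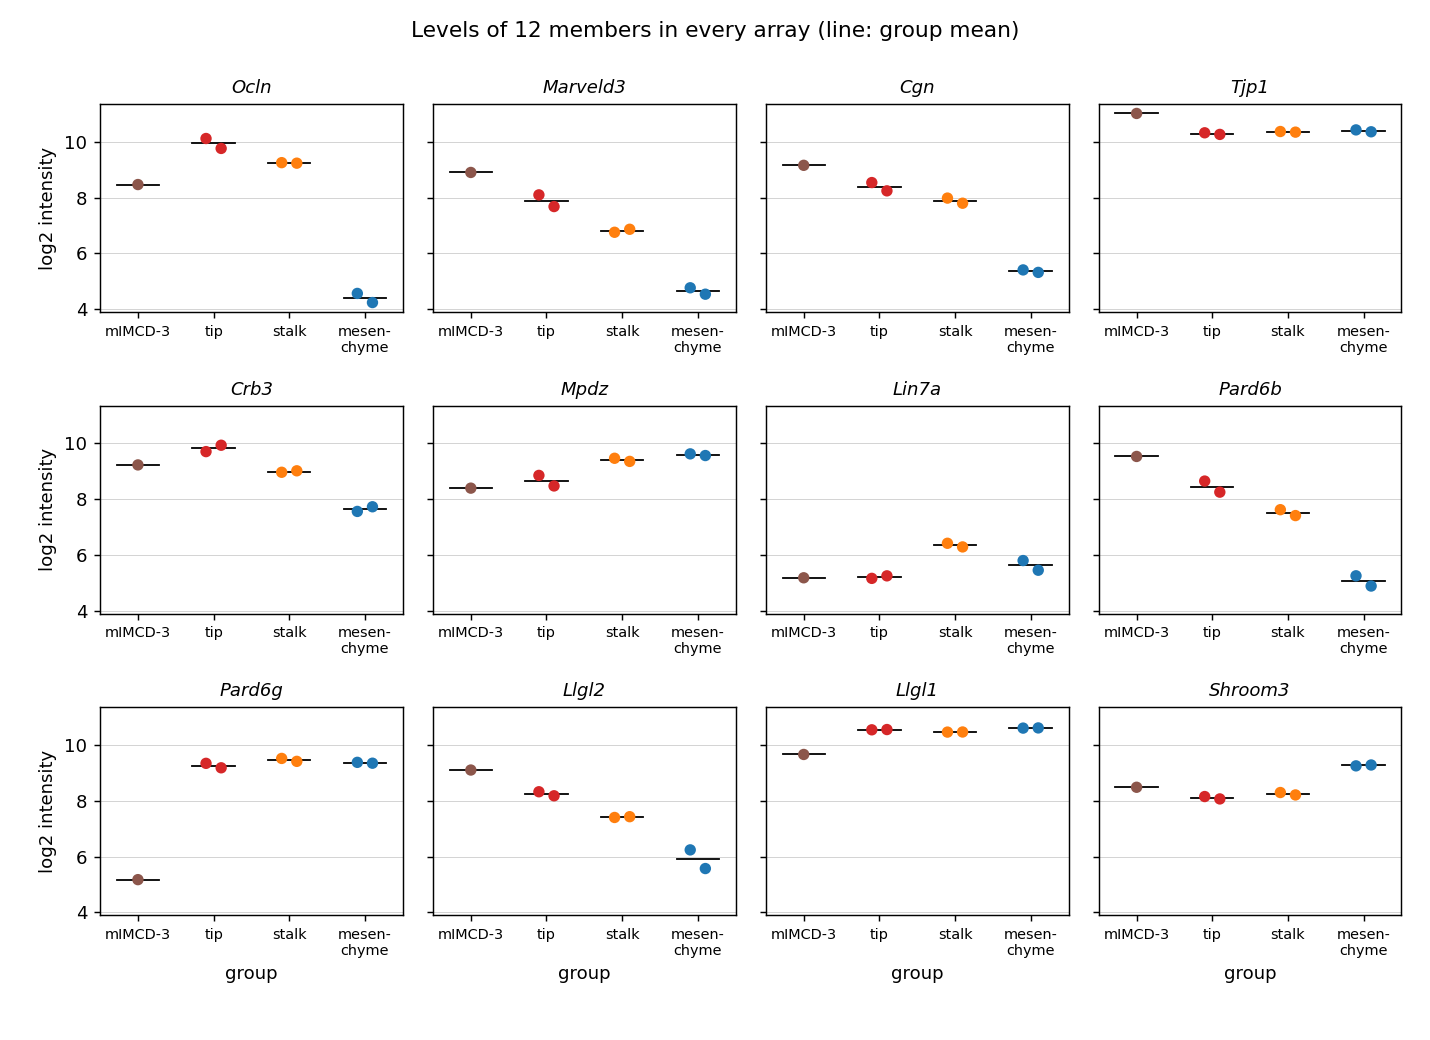
Log2 intensity of 12 members in each array by group, with a line at the group mean (1 array of mIMCD-3, 2 of each tissue). Ocln, Marveld3, Cgn, Pard6b and Llgl2 lie above mesenchyme in every bud array, Tjp1, Pard6g and Llgl1 differ little between the tissues, and Mpdz and Shroom3 lie below mesenchyme in every bud array.

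Among the cytoplasmic scaffolds, Cgn, Tjp3, Magi1 and Magi3 were higher in bud, and Tjp1 and Cgnl1 were not called. Cgn encodes cingulin, which joins tight junctions to actomyosin. Cgn had 9.16 in mIMCD-3, 8.54 and 8.24 in tip, 7.98 and 7.80 in stalk, and 5.41 and 5.32 in mesenchyme, a bud difference of 2.78 ± 0.13 log2 units (adjusted p 1.19e-05). For its paralog Cgnl1, paracingulin, all tissue arrays lay between 7.66 and 8.16, and the bud difference was 0.03 ± 0.13 (adjusted p 0.961). Tjp3 encodes ZO-3, a PDZ protein that binds claudins and occludin. Tjp3 had 7.52 in mIMCD-3, 7.37 and 7.02 in tip, 6.35 and 6.28 in stalk, and 5.08 in both mesenchyme arrays, a bud difference of 1.68 ± 0.13 (adjusted p 0.000125). Tjp1, which encodes ZO-1 and also acts at adherens junctions of other cells, stayed within 10.27 to 10.43 in the tissues, and its bud difference was -0.07 ± 0.10 (adjusted p 0.868). Magi1, a membrane-associated guanylate kinase of cell contacts, had 7.95 in mIMCD-3, 8.51 and 8.26 in tip, 7.88 and 7.71 in stalk, and 7.28 and 6.95 in mesenchyme. Bud arrays lay above mesenchyme arrays for Magi1, by 0.98 ± 0.14 (adjusted p 0.00351), and Magi3 was higher in bud by 0.84 ± 0.14 (adjusted p 0.00628). Without mesenchyme replicate 2 the Magi3 call was lost, at a difference of 0.69 and an adjusted p of 0.0657.

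In the Crumbs complex, the transmembrane member and 1 of the large PDZ scaffolds were higher in bud, while the related scaffold was lower. Crb3 encodes the Crumbs protein of mammalian epithelia, which defines the apical membrane. Crb3 had 9.23 in mIMCD-3, 9.71 and 9.94 in tip, 8.97 and 9.02 in stalk, and 7.56 and 7.73 in mesenchyme, a bud difference of 1.76 ± 0.12 log2 units (adjusted p 6.78e-05). Inadl encodes Patj, a scaffold with many PDZ domains that Pals1 ties to Crumbs. Inadl had 9.21 in mIMCD-3, 8.25 and 7.89 in tip, 7.72 and 7.57 in stalk, and 6.90 and 6.77 in mesenchyme, a bud difference of 1.02 ± 0.14 (adjusted p 0.00221). Mpdz encodes Mupp1, the paralog of Patj. Mpdz had 8.40 in mIMCD-3, 8.85 and 8.48 in tip, 9.47 and 9.36 in stalk, and 9.63 and 9.57 in mesenchyme. All bud arrays lay below the mesenchyme arrays for Mpdz, by -0.56 ± 0.14 (adjusted p 0.038). That call was lost without either mesenchyme array or either stalk array, with differences from -0.65 to -0.46 and adjusted p-values up to 0.209 over the fits without 1 tissue array. The Mpdz call was also lost when a gene was scored by the mean of its probe sets, and with every probe set tested (adjusted p 0.056). Its dimmer probe sets differed by -0.30 ± 0.12, -0.15 ± 0.14 and -0.09 ± 0.14 and were not called.

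The adaptors of the Crumbs complex showed no difference between bud as a whole and mesenchyme that passed the test. Mpp5 encodes Pals1, the link between Crumbs and Patj, and its bud difference was 0.08 ± 0.16 log2 units (adjusted p 0.919). For Lin7c, a small PDZ protein bound by Pals1, the bud difference was -0.01 ± 0.12 (adjusted p 0.987), with all tissue arrays between 9.67 and 9.92. Its paralog Lin7a had 5.18 in mIMCD-3, 5.16 and 5.25 in tip, 6.42 and 6.29 in stalk, and 5.80 and 5.45 in mesenchyme. Stalk lay above and tip below mesenchyme in every array, and the mean of tip and stalk differed by 0.15 ± 0.13 (adjusted p 0.692).

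In the Par complex, 1 of the 3 Par6 genes carried the difference. Par6 proteins bind atypical protein kinase C, and Par3 anchors them at the junction. Pard6b had 9.53 in mIMCD-3, 8.65 and 8.25 in tip, 7.62 and 7.41 in stalk, and 5.25 and 4.89 in mesenchyme, a bud difference of 2.92 ± 0.17 log2 units, 7.54-fold (adjusted p 2.85e-05). For Pard6a the bud difference was -0.03 ± 0.16 (adjusted p 0.974). Pard6g had 5.17 in mIMCD-3, 9.34 and 9.18 in tip, 9.52 and 9.41 in stalk, and 9.38 and 9.35 in mesenchyme, and its bud difference was 0.00 ± 0.11 (adjusted p 0.999). The tissues lay close together without overlapping, tip just below and stalk just above mesenchyme, and neither difference was called (tip -0.10 ± 0.13, stalk 0.10 ± 0.13). Pard3, the scaffold itself, differed by 0.21 ± 0.12 (adjusted p 0.439).

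The 2 atypical protein kinase C genes differed less than Pard6b between bud and mesenchyme. Prkci, which encodes the iota form, had 11.71 in mIMCD-3, 9.91 and 9.76 in tip, 9.67 and 9.71 in stalk, and 9.51 and 9.33 in mesenchyme. All bud arrays lay above the mesenchyme arrays, but the bud difference of 0.34 ± 0.12 log2 units was not called (adjusted p 0.134). Prkcz, which encodes the zeta form, had 7.48 in mIMCD-3, 7.05 and 6.83 in tip, 5.91 and 6.25 in stalk, and 5.92 and 6.16 in mesenchyme, a bud difference of 0.48 ± 0.15 (adjusted p 0.0943). Stalk and mesenchyme overlapped for Prkcz, and tip lay above both. With the replicate number as a block, both passed, at adjusted p-values of 0.0429 for Prkci and 0.032 for Prkcz.

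Of the 5 genes of the basolateral Scribble complex, Llgl2 was called higher in bud and the other 4 were not called. Lgl proteins oppose the apical kinase at the lateral membrane. Llgl2 had 9.10 in mIMCD-3, 8.32 and 8.18 in tip, 7.40 and 7.43 in stalk, and 6.24 and 5.57 in mesenchyme, a bud difference of 1.93 ± 0.18 log2 units (adjusted p 0.000385). For Llgl1 all tissue arrays lay between 10.46 and 10.61, and the bud difference was -0.10 ± 0.10 (adjusted p 0.755). Scrib, the scaffold that names the complex, had 9.24 in mIMCD-3, 8.67 and 8.62 in tip, 8.09 and 8.14 in stalk, and 8.30 and 8.13 in mesenchyme. Tip lay above both stalk and mesenchyme for Scrib, and bud as a whole differed by 0.16 ± 0.11 (adjusted p 0.558). Dlg1 and Dlg3 encode relatives of the fly scaffold Discs large. Dlg1 had 10.33 in mIMCD-3, 9.14 and 8.89 in tip, 9.14 and 9.07 in stalk, and 8.85 and 8.73 in mesenchyme, a bud difference of 0.27 ± 0.12 (adjusted p 0.279). Dlg3 had 7.45 in mIMCD-3, 8.38 and 8.14 in tip, 8.01 and 7.84 in stalk, and 7.77 and 7.58 in mesenchyme, a bud difference of 0.41 ± 0.13 (adjusted p 0.0975). Bud arrays lay above mesenchyme arrays for both, and Dlg3 passed with the replicate number as a block (adjusted p 0.0117).

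The actin-linked genes split 3 ways. Shroom3 encodes an actin-binding protein that drives apical constriction. Shroom3 had 8.49 in mIMCD-3, 8.15 and 8.07 in tip, 8.30 and 8.21 in stalk, and 9.25 and 9.28 in mesenchyme. Every bud array lay below both mesenchyme arrays, and the bud difference was -1.09 ± 0.11 log2 units (adjusted p 0.000422). Amotl2, an angiomotin relative that binds and restrains Yap, had 10.92 in mIMCD-3, 10.04 and 10.17 in tip, 9.73 and 9.72 in stalk, and 9.35 and 9.28 in mesenchyme. The bud difference of Amotl2 was 0.60 ± 0.11 (adjusted p 0.0097), and its call was lost without either mesenchyme or either stalk array, at adjusted p-values up to 0.101. The tip arrays of Amotl1 overlapped those of stalk and of mesenchyme, with 9.41 in mIMCD-3, 9.40 and 9.23 in tip, 9.46 and 9.39 in stalk, 9.36 and 9.27 in mesenchyme and a bud difference of 0.06 ± 0.11 (adjusted p 0.909).

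Tip and stalk were also set against mesenchyme separately. Tip was higher in 17 members and lower in 3, with a median difference of 0.50 log2 units against 0.01 over all genes, of which 7.38% were called higher and 8.37% lower. Stalk was higher in 14 and lower in 1, with a median of 0.29 against -0.04 over all genes, of which 4.3% were called higher and 1.24% lower. Both comparisons use the same mesenchyme arrays. Prkcz (0.91 ± 0.17, adjusted p 0.00861) and Dlg3 (0.58 ± 0.15, adjusted p 0.0359) were called in tip, while their stalk differences were 0.05 ± 0.17 and 0.25 ± 0.15. The Dlg3 call in tip was lost without 5 of the 6 tissue arrays, tip replicate 2 being the exception, with adjusted p-values up to 0.208, and the Prkcz call without mesenchyme replicate 1 (adjusted p 0.0586). The Magi3 call in tip was lost without mesenchyme replicate 2 or tip replicate 1 (adjusted p up to 0.147). The stalk count was 8 without mesenchyme replicate 2 and 8 without either stalk array, because F11r, Cxadr, Lsr, Magi3, Inadl and Lin7a then missed the threshold, and 10 without mesenchyme replicate 1. It was also 8 when a gene was scored by the mean of its probe sets. With the replicate number as a block, Prkci and Scrib were further higher and Lin7a lower in tip (adjusted p 0.0271, 0.0202 and 0.0435), and Magi1 was higher in stalk (adjusted p 0.00365).

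Tip against stalk asks how these genes differ along the bud. Tip was higher in 9 members and lower in 3, and 22 did not pass the test. Of all genes, 2.86% were called higher and 6.97% lower in tip, and the median difference was 0.24 log2 units over the members against 0.07 over all genes. The higher members were 4 of 8 membrane proteins (Marveld3 1.08 ± 0.18, Lsr 0.83 ± 0.13, Ocln 0.70 ± 0.17 and F11r 0.50 ± 0.12), the scaffold Tjp3 (0.87 ± 0.15), Crb3 (0.83 ± 0.14), the Par complex genes Pard6b (0.93 ± 0.19) and Prkcz (0.86 ± 0.17), and Scrib (0.53 ± 0.13). Their adjusted p-values ran from 0.00588 for Lsr to 0.0442 for Ocln. With the replicate number as a block 16 members were higher in tip, adding Marveld2 (0.77, adjusted p 0.0084), Llgl2 (0.84, 0.00785), Magi1 (0.59, 0.00507), Cxadr (0.57, 0.00845), Cgn (0.50, 0.0129), Inadl (0.42, 0.0298) and Amotl2 (0.38, 0.0387).

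The lower members in tip were Lin7a, Mpdz and Jam3. Lin7a was lower in tip by -1.15 ± 0.15 log2 units (adjusted p 0.00284). Its stalk arrays lay above and its tip arrays below mesenchyme, as they did for Jam2 (-0.41 ± 0.15, adjusted p 0.16) and Pard6g (-0.20 ± 0.13, adjusted p 0.414), whose tip and stalk difference was not called. Mpdz differed by -0.75 ± 0.16 (adjusted p 0.0224) and Jam3 by -0.64 ± 0.13 (adjusted p 0.023). Both calls, and those of Marveld3, F11r and Prkcz, were lost when a gene was scored by the mean of its probe sets. A dimmer probe set of Jam2 was also called, with log2 intensities of 3.48 and 3.88 in tip and 5.69 and 5.53 in stalk, a difference of -1.93 ± 0.16. Its mesenchyme arrays, 4.78 and 4.76, lay between tip and stalk.

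These tip and stalk counts rest on few arrays. Without stalk replicate 1, 2 members were higher (Marveld3 and Lsr), and without stalk replicate 2, 2 members were higher (Marveld3 and Prkcz). Without tip replicate 1, Ocln, Pard6b, Prkcz and Scrib missed the threshold. Scrib and F11r also missed it with arrays centred on their medians, with every probe set tested and with only the tip and stalk arrays. Leaving out 1 tissue array at a time lost the Scrib call in all 6 fits and the F11r call in 5. Lin7a was called lower in each of the 6 fits, and without either stalk array or tip replicate 2 it was the 1 member called lower. Tip and stalk also differed in other cells. All 6 stroma, all 8 endothelial, 5 of 6 nephron progenitor and all 3 erythroid markers were called lower in tip. So were 3 of 5 myeloid, 1 of 4 neural and 1 of 4 smooth muscle markers. Of 7 bud markers 5 were called higher in tip, among them Epcam by 0.98 ± 0.17 (adjusted p 0.0093). Cdh1 differed by 0.56 ± 0.15 and was not called (adjusted p 0.0574). The part of these markers in the result was not tested.

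**Figure D3:**
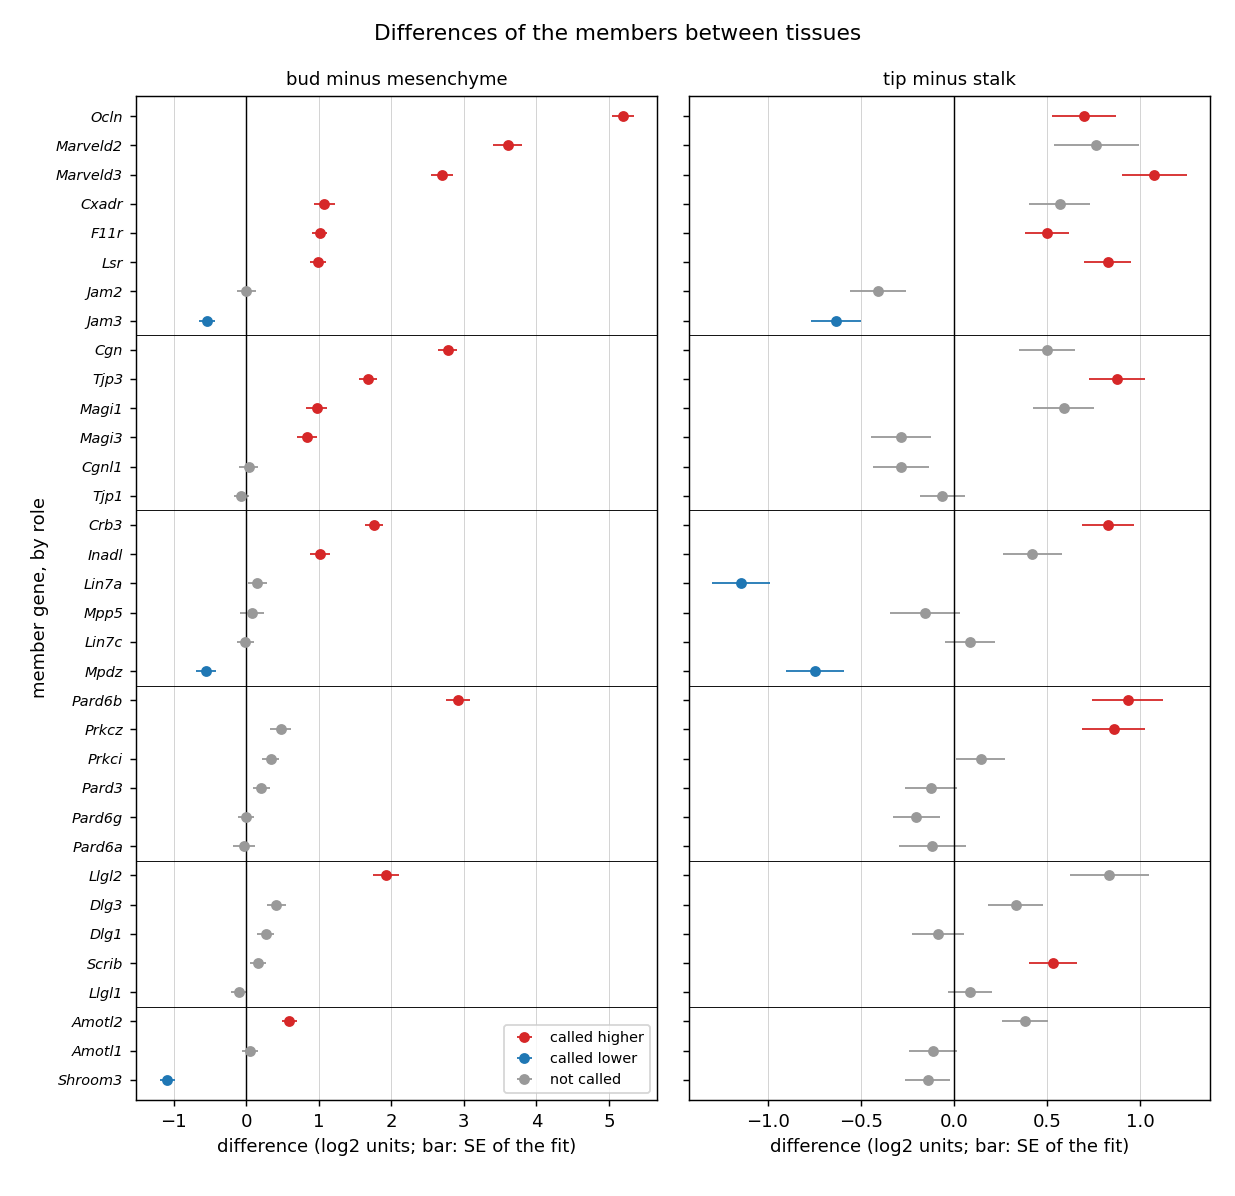
Difference of each member between bud and mesenchyme (left) and between tip and stalk (right), in log2 units with the SE of the limma fit (6 arrays), coloured by call. On the left Ocln stands farthest out at 5.19 and Shroom3 lowest at -1.09, and on the right Marveld3 is highest at 1.08 and Lin7a lowest at -1.15.

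mIMCD-3 was described against the tissues by size only, since a single array has no replicate check and its line and its hybridisation, added later by the authors, cannot be told apart. Against bud, 10 members were at least 1 log2 unit higher and 3 at least 1 unit lower, beside 9.74% and 9.33% of all genes. The median was 0.46 over the members and -0.05 over all genes. The higher members were Prkci (1.95, and 0.32 in its other probe set), Cxadr (1.69), Marveld3 (1.55), Pard6b (1.55), Inadl (1.36), Pard6a (1.32), Llgl2 (1.27), Dlg1 (1.27), Cgn (1.02) and Amotl2 (1.01). They include 3 Par complex genes and 2 of the basolateral Scribble complex. The lower members were Pard6g (-4.19), Jam3 (-4.10) and Ocln (-1.12). In mIMCD-3, Pard6g (5.17) lay below the array median and Jam3 (4.08) near its lower quartile (3.99), while the lowest tissue array held 9.18 for Pard6g and 7.82 for Jam3. Of the 3 Par6 genes, Pard6a and Pard6b were higher and Pard6g lower in mIMCD-3 than in bud.

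Against mesenchyme, mIMCD-3 was at least 1 log2 unit higher in 19 members and lower in 3, beside 11.2% and 9.78% of all genes, with a median of 1.28 against -0.07 over all genes. Pard6b (4.46, 22.1-fold), Marveld3 (4.25), Ocln (4.07), Cgn (3.80), Marveld2 (3.26) and Llgl2 (3.20) stood highest. Jam3 (-4.64), Pard6g (-4.19) and Mpdz (-1.20) stood lowest. Shroom3 was 0.78 log2 units below mesenchyme in mIMCD-3, less than the 1 unit required, and 0.30 above bud.

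**Figure D4:**
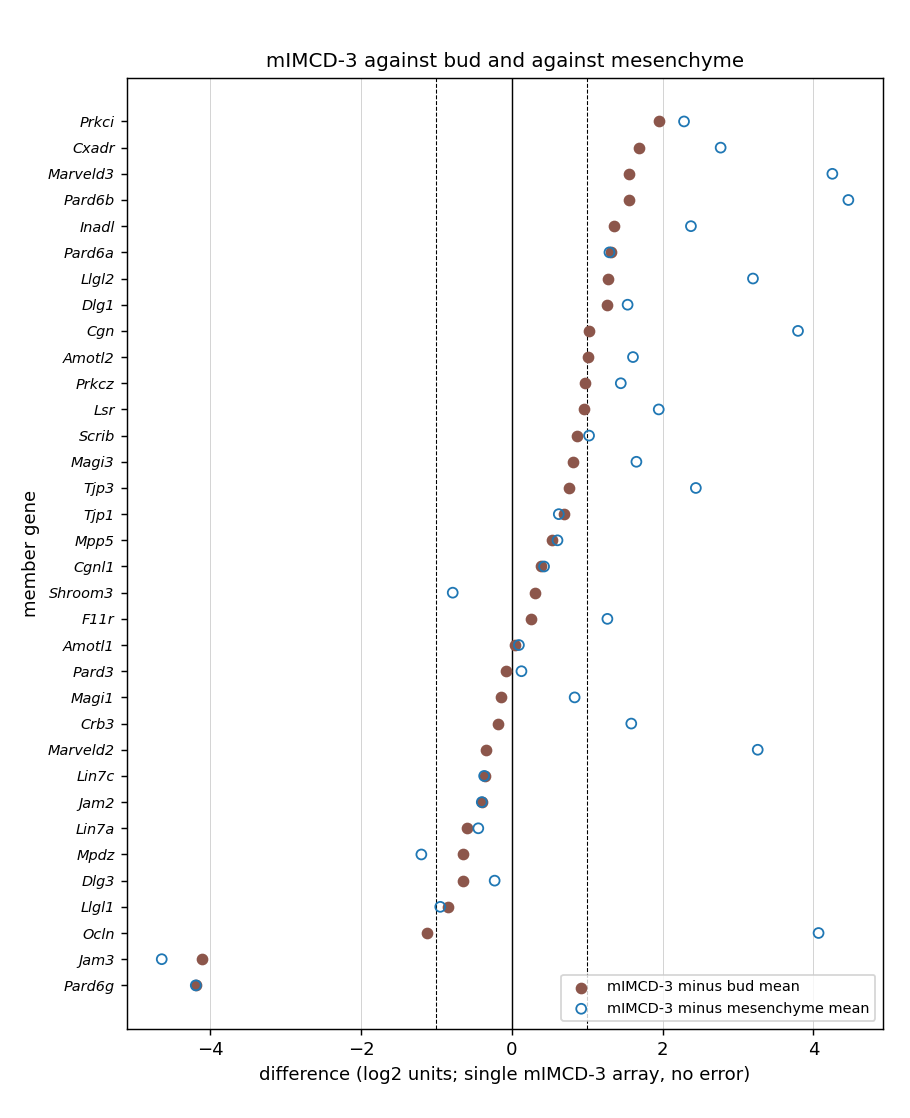
Difference of the single mIMCD-3 array from the bud mean (filled) and from the mesenchyme mean (open) for each member, in log2 units, with dashed lines at -1 and 1 and no error since there is 1 array. Prkci is highest against bud at 1.95 in the probe set plotted, and Pard6g and Jam3 lie beyond -4 against both tissues.

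Probe sets of 1 gene differed in size and, in some genes, in direction. Among the 90 probe sets, tested with every other probe set of the array, 24 were higher and 3 lower in bud than in mesenchyme, beside 3.91% and 3.09% of 45037 probe sets. No gene had probe sets called in both directions. Of 25 genes with several probe sets, 7 had at least 1 whose difference had the other sign than the brightest, among them Marveld3 and Shroom3, whose brightest probe set was called. Crb3 had 3 called probe sets with bud differences of 1.76, 1.74 and 4.01 log2 units. The probe set with 4.01 had 9.43 in mIMCD-3, 9.63 and 9.65 in tip, 8.56 and 8.44 in stalk, and 5.16 and 4.96 in mesenchyme. The second Ocln probe set differed by 3.46 ± 0.13, with 5.27 and 5.49 in mesenchyme, and the second Pard6b probe set by 2.40 ± 0.16. Of 5 Shroom3 probe sets, 2 were called lower in bud, at -1.09 and -0.68. Marveld3 rested on 1 probe set, its dimmer ones differing by 0.19 ± 0.22 and -0.21 ± 0.17. The dimmer probe sets of Cgn (0.17 ± 0.13), F11r (0.28 ± 0.13) and Lsr (0.14 ± 0.16) were not called either. Nor were some dimmer ones of Magi1 (0.40, 0.44 and 0.17), Inadl (0.09 and 0.05), Cxadr (0.26) and Magi3 (0.31). Other dimmer probe sets of Magi1 (0.89), Inadl (0.97) and Cxadr (0.93, 0.84 and 0.81) were called higher. The difference of mIMCD-3 from bud was -4.19 and -2.30 in the pair of Pard6g probe sets, while Jam3 had -4.10 in the brightest and -0.12 in a dimmer one. Prkci, the highest member in mIMCD-3 against bud by its brightest probe set (1.95), differed by 0.32 in its other probe set, whose mean level was 8.20.

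**Figure D5:**
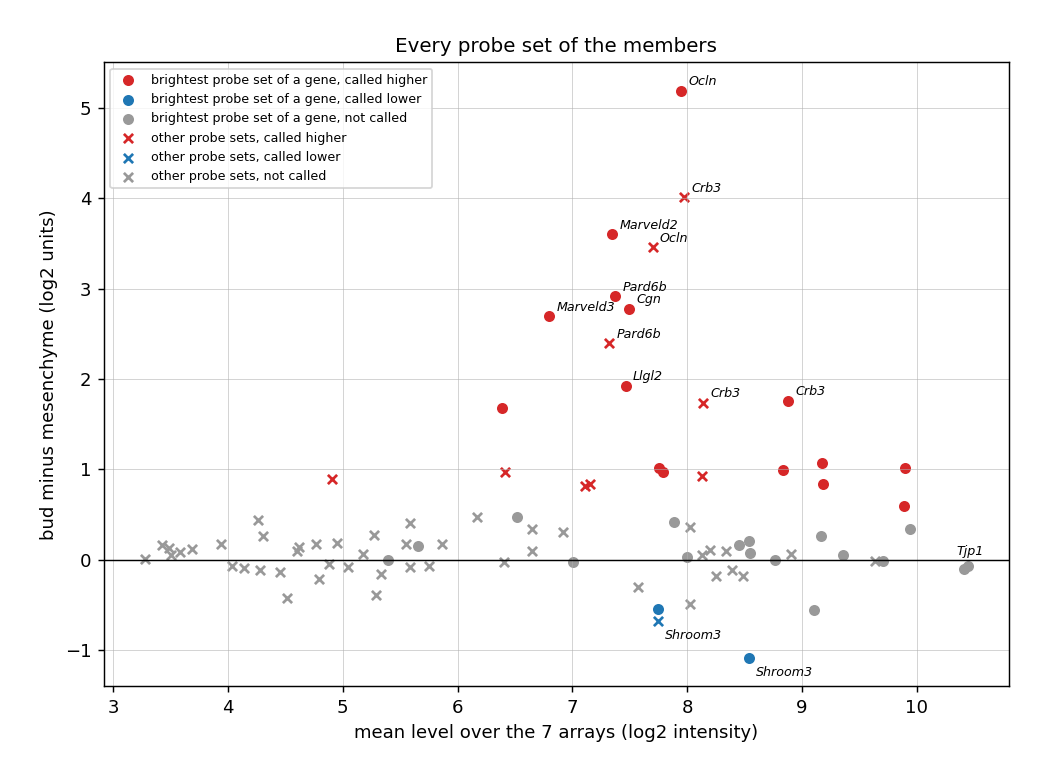
Bud minus mesenchyme difference in log2 units against the mean log2 intensity over the 7 arrays for all 90 member probe sets, with the brightest of each gene as a circle and others as crosses, coloured by call. The called probe sets lie above the line at 0 apart from those of Shroom3 and Jam3, and the 3 Crb3 probe sets lie at 1.74 to 4.01.

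Other genes of the same machinery differed in both directions. Of 39 further genes listed for these complexes, 34 were measured, and 6 were higher and 4 lower in bud, beside 6.13% and 4.96% of all genes, with a median of 0.16 log2 units. Epb41l5, a FERM protein that binds Crumbs, had 10.05 in mIMCD-3, 8.49 and 8.31 in tip, 7.76 and 7.91 in stalk, and 4.99 and 5.25 in mesenchyme, a bud difference of 3.0 ± 0.13. Wwc1, the Kibra protein of Hippo signalling, which binds atypical protein kinase C, was higher in bud by 2.52 ± 0.10 and in tip over stalk by 1.13 ± 0.12 (adjusted p 0.000963). Igsf5, which encodes JAM4, was higher in bud by 1.05 ± 0.13. Esam, an adhesion molecule of endothelial junctions, was lower in bud by -1.09 ± 0.14, and so were all 8 endothelial markers, whose part in the result was not tested. Tip was higher than stalk in 2 of the 34 (Wwc1 and Igsf5) and lower in 3 (Rab13, Esam and Amot), beside 2.86% and 6.97% of all genes. Tip against mesenchyme gave 7 higher and 5 lower, beside 7.38% and 8.37% of all genes. Stalk against mesenchyme gave 4 higher and 1 lower, beside 4.3% and 1.24%. In mIMCD-3, 10 were at least 1 log2 unit higher and 2 lower than bud, led by Igsf5 (2.76) and Wwc1 (2.30), beside 9.74% and 9.33% of all genes. Against mesenchyme, 10 were higher and 4 lower in mIMCD-3, beside 11.2% and 9.78% of all genes.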

How the data were processed

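Biotin-labelled cRNA made from total RNA was hybridised to Affymetrix mouse arrays, per the labels' protocols, and expression values were summarised by RMA over all 7 arrays together, per the submitters' processing notes and design text. Which RMA software was used is not given in the sources used here. The authors deposited linear intensity, spanning 5.08 to 19587, which was taken to log2 here. RMA gives no detection calls and pulls dim probe sets together. Array medians were 5.51 to 5.62 log2 units in the tissues and 5.40 in mIMCD-3, and the number of arrays limits the precision.

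Of 45101 probe sets, 64 were controls, 34945 listed 1 gene and 932 several. Probe sets listing 1 gene were used, and the one with the highest mean over all arrays stood for its gene. Symbols came from the platform annotation, and 99.1% of its Entrez identifiers were in RefSeq GRCm38.p6, used for names and promoter windows.

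Tissues were fitted in limma 3.58.1 (R 4.3.3, lmFit and eBayes) on the 6 tissue arrays, with 1 coefficient per group, 3 residual degrees of freedom, two-sided tests and Benjamini-Hochberg adjustment over 18194 genes at 0.05. mIMCD-3 was described by differences of at least 1 log2 unit. The script was tested on simulated data. Figures used matplotlib 3.10.9 in Python 3.11.15.

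Replicate 1 minus replicate 2 differences were correlated over all probe sets. The correlation was 0.43 between tip and stalk, 0.57 between tip and mesenchyme and 0.39 between stalk and mesenchyme. All were over the limit of 0.1, so the replicate numbers may mark pairs. The main fit did not use them, and SEs and adjusted p-values are unpaired unless the replicate block is named. The labels do not state the pairing, and a fit that blocks on the replicate number (a paired fit) is an alternative, given where it changes a call. Further alternatives were a mean-variance trend with robust variance, median centring, leaving out the dimmest 40% of genes, a floor at the lower quartile, the mean of a gene's probe sets, every probe set tested, only the arrays of the 2 groups compared, and leaving out each array.

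The members, the further pathway genes and the cell type markers were chosen with earlier results of these data known. By rule, values in every array were given for the 3 members per role with the largest bud difference, members called between tip and stalk or lower in bud, and members at least 2 log2 units from bud in mIMCD-3. Further pathway genes were named for the 4 largest differences per contrast, and Amot and the dimmer Jam2, Crb3 and other probe sets were named after their values were seen. Some of the listed pathway genes were not analysed here.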

Additional observations from a re-analysis of the deposited data

Results flagged for a closer look

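Lin7a, which encodes a PDZ adaptor of the Crumbs complex, lay on opposite sides of mesenchyme in tip and in stalk. Both tip arrays (5.16 and 5.25 log2 units) lay below and both stalk arrays (6.42 and 6.29) above the mesenchyme arrays (5.80 and 5.45). Against mesenchyme, tip differed by -0.42 ± 0.15 log2 units, which was not called (adjusted p 0.128, called in 1 of 13 alternatives), and stalk by 0.73 ± 0.15 (adjusted p 0.036, called in 8 of 13 alternatives). The difference itself was tested as tip minus stalk, at -1.1478 log2 units with an adjusted p of 0.00284, and it was called lower without each of the 6 tissue arrays in turn. Its 2 other probe sets were dimmer, with means of 3.69 and 3.48 log2 units, and differed by -0.11 ± 0.13 and -0.29 ± 0.17. In mIMCD-3 Lin7a had 5.18. The Lin7a probe set used was itself dim. Both tip arrays and mIMCD-3 lay below the medians of their arrays (5.52, 5.62 and 5.40). Mesenchyme replicate 1 lay above its median (5.52) and replicate 2 below (5.61), and both stalk arrays lay above theirs (5.51 and 5.59). Most members had 14 alternatives in these comparisons. Lin7a had 13, since it was not tested when the dimmest genes were left out. The stroma marker Tbx18 had the same order of tissues as Lin7a, with means of 5.96 in tip, 11.05 in stalk and 9.64 in mesenchyme. Of the 6 stroma markers, 1 was called higher in stalk than in mesenchyme, 1 lower, and 4 were not called. The part of these markers in the result was not tested.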

How the results depend on the processing

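Counts of members called higher in bud than in mesenchyme stayed within 1.5 times of 15 under each alternative run, and with the replicate block it was 18, adding Prkci, Prkcz and Dlg3. Members lower in bud numbered 1 with the mean of a gene's probe sets and 1 to 3 without 1 array. Members higher in stalk than in mesenchyme numbered 8 with the mean of probe sets and 8 to 14 without 1 array. Members higher in tip than in stalk numbered 16 with the replicate block, 14 with trend and robust variance and 2 to 9 without 1 array, and those lower 1 to 3 without 1 array. At 2 log2 units in place of 1, 0 members were higher in mIMCD-3 than in bud and 10 than in mesenchyme. The block changed no call beyond those given with each comparison. Of the values of single called members under an alternative, 788 kept their call, 102 missed the threshold and 0 reversed. Of those not called, 48 passed under an alternative, 881 did not and kept their sign, and 43 did not and changed sign. The cause of these changes was not tested. An alternative chosen after seeing the data left out each tissue array in turn from the mIMCD-3 differences and gave 8 to 12 members higher than bud and 18 to 19 higher than mesenchyme.

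With 2 arrays per tissue and 3 residual degrees of freedom, a missed threshold does not show equal levels. Genes near the lower quartile of an array, such as Ocln in mesenchyme, have no detection call. The summed intensity of the stroma markers in the stalk arrays was at the mesenchyme level. Single stroma markers ran from -1.18 to 1.41 log2 units in stalk against mesenchyme. The single mIMCD-3 array was added later, and line, culture and hybridisation cannot be told apart.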
